A study of Mus musculus with 194 samples.

Results

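The dorsal striatum (DS) was profiled 2 and 4 hr after a challenge dose of cocaine and compared with the DS of abstinent mice. The libraries were taken by their labels (challenge, DS, 0, 2 or 4 hr, 1 sequencing run), which gave 4 mice at 2 hr, 4 at 4 hr and 3 at 0 hr, or 11 of the 194 libraries of the series. All of these mice were young adult males of the strain C57BL/6OLAHSD that were first accustomed to handling and saline injections, then received cocaine i.p. at 20 mg/kg once a day for 5 days, and then went 21 days without the drug. The 0 hr mice, called abstinent, were taken after those 21 days without any injection that day, and the other groups received 1 further dose of 20 mg/kg before they were taken. No group received saline at the challenge, so cocaine cannot be told apart from the injection or the handling. A further 4 mice taken 1 hr after challenge in the same run were used to place the peak of each gene. The whole series measured 5 brain structures by 3′-RNA-seq, in which transcripts are read from their 3′ ends, after acute cocaine (the first dose), repeated cocaine or challenge.

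The DS is the dorsal part of the striatum and consists mainly of spiny projection neurons, which receive cortical glutamate and midbrain dopamine. Cocaine blocks the reuptake of dopamine, and in these neurons dopamine and glutamate signals act through cAMP, calcium and MAP kinase pathways on transcription factors that are already present. These switch on immediate early genes (IEGs), many of which encode transcription factors, within minutes, and a slower set of genes for secreted factors, synaptic proteins and enzymes follows over hours.

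Levels are given as CPM, the counts of a gene relative to the scaled total of its library, and changes as log2 fold changes (log2FC) ± SE against the 3 abstinent mice. A gene was called up or down at an adjusted p under 0.05 and a fold change over 1.2. Of 12641 genes tested, 47 rose at 2 hr (0.372%) and 9 rose at 4 hr (0.0712%), which together are 51 genes. None fell at either time (0%). By edgeR at an unadjusted p under 0.05, 315 genes were lower at 2 hr and 338 at 4 hr, and DESeq2 called 1 gene down at 2 hr (Pcdhb14) and 2 at 4 hr (Pnma2 and Tmem263), which are named because they are so few. By setting, the genes down went up to 6 at 2 hr (no filter on low counts, only the groups compared, or an F test over the times) and up to 15 at 4 hr (the F test), and the fit of all 48 DS libraries called 29 genes up at 2 hr, 28 of them among the 47, and 2 at 4 hr. At 1 hr, for comparison, 56 genes rose (0.443%) and none fell (0%), with 285 lower at an unadjusted p under 0.05 by edgeR and 0 called down by DESeq2. The number of genes called thus went from 56 to 47 to 9 over the time course, while the median log2FC of all genes tested was 0.00 at 2 and at 4 hr.

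A pair of libraries stood apart. Abstinent replicate 3 had the lowest level of the 3 abstinent mice for 37 of the 47 genes called at 2 hr (78.7%) and for 8 of the 9 called at 4 hr (88.9%), against 34.2% of all genes tested. Without it, 18 genes were called up at 2 hr, of which 17 were among the 47, and 1 at 4 hr, which was Inhba. The second library was 4 hr replicate 2, with 10367769 counts against 2930082 to 4649668 in the other 10, and it was the highest of its group for many of the genes described below. The methods of the study mention down-sampling of very deep libraries, whereas the deposited column was used whole here. Without this mouse, 3 genes were called up at 4 hr (Egr3, Fosb and Inhba) and 54 at 2 hr. Without abstinent replicate 3, 13 genes were late-peaking rather than the 37 described below.

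**Figure D1:**
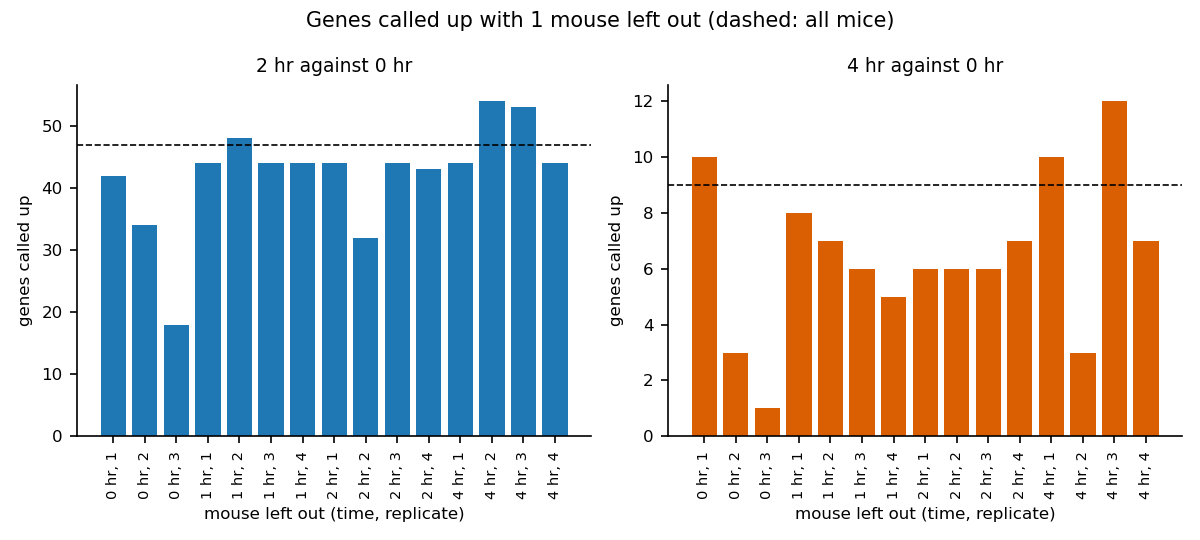
Number of genes called up at 2 hr (left) and 4 hr (right) against 0 hr when each challenge mouse in turn was left out of the fit, named by its time and replicate. Bars are counts of genes and the dashed line is the count with all mice, 47 and 9; leaving out 0 hr replicate 3 gave 18 and 1.

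The markers placed the tissue in the striatum rather than the cortex. They cannot tell the DS from the nucleus accumbens, another structure of the series with spiny projection neurons. The 15 measured markers of striatal projection neurons summed to 16292.9 to 16671.2 CPM at 0 hr, 16016.9 to 17169.3 CPM at 2 hr and 15436.8 to 17669.6 CPM at 4 hr, and the 12 cortical excitatory neuron markers to at most 355 CPM in any of these mice. None of the markers of striatal, cortical, glial, vascular or blood cells was called at 2 or 4 hr. The 12 oligodendrocyte markers lay between 7550 and 8549 CPM at 0 hr, 8340 and 9591 CPM at 2 hr and 8141 and 8752 CPM in the 4 hr mice other than replicate 2, which was at 11053 CPM (median log2FC 0.13 and 0.21), and the choroid plexus and ependymal markers between 189 and 232, 153 and 198, and 154 and 191 CPM (median log2FC -0.25 and -0.28). Their part in the results was not tested. In tissue samples such as these, more RNA per cell and more cells of a type cannot be told apart.

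Of the 51 genes, 37 had a larger log2FC at 2 or 4 hr than at 1 hr and are called late-peaking. For 32 of them the largest log2FC was at 2 hr and for 5 at 4 hr (Pcsk1, Ina, Homer1, Eprs and Zdhhc14). The other 14 had their largest log2FC at 1 hr: Fosl2, Egr4, Shisa2, Egr2, Arl5b, Gm13889, Midn, Slc25a25, Egr1, Dnajb5, Hbegf, Per1, Tspyl2 and R3hdm1. Among the 37 late-peaking genes, 8 had already been called at 1 hr (Cdkn1a, Dusp14, Fosb, Irs2, Mest, Nr4a3, Peli1 and Zdbf2) and 29 had not. All of these contrasts use the same 3 abstinent mice, so the overlap between times is no independent sign. The rise from 1 hr itself was tested without them, though only genes called against them were counted. It held for 4 of the 37 genes: Inhba, Grasp and Ubash3b between 1 and 2 hr, and Zdhhc14 between 1 and 4 hr. In the 15 fits that left out 1 mouse, Inhba was late-peaking with a tested rise in all 15, Zdhhc14 in 13, Ubash3b in 5 and Grasp in 4, and Inhba alone was so without abstinent replicate 3. In that fit Zdhhc14 and Ubash3b were no longer called against 0 hr, so it does not show whether their rise from 1 hr held. With libraries thinned to the smallest, or with both runs summed, Inhba and Zdhhc14 were so and Grasp and Ubash3b were not. Over all genes tested, 5 rose (0.0396%) and 18 fell (0.142%) from 1 to 2 hr, and 13 rose (0.103%) and 58 fell (0.459%) from 1 to 4 hr.

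**Figure D2:**
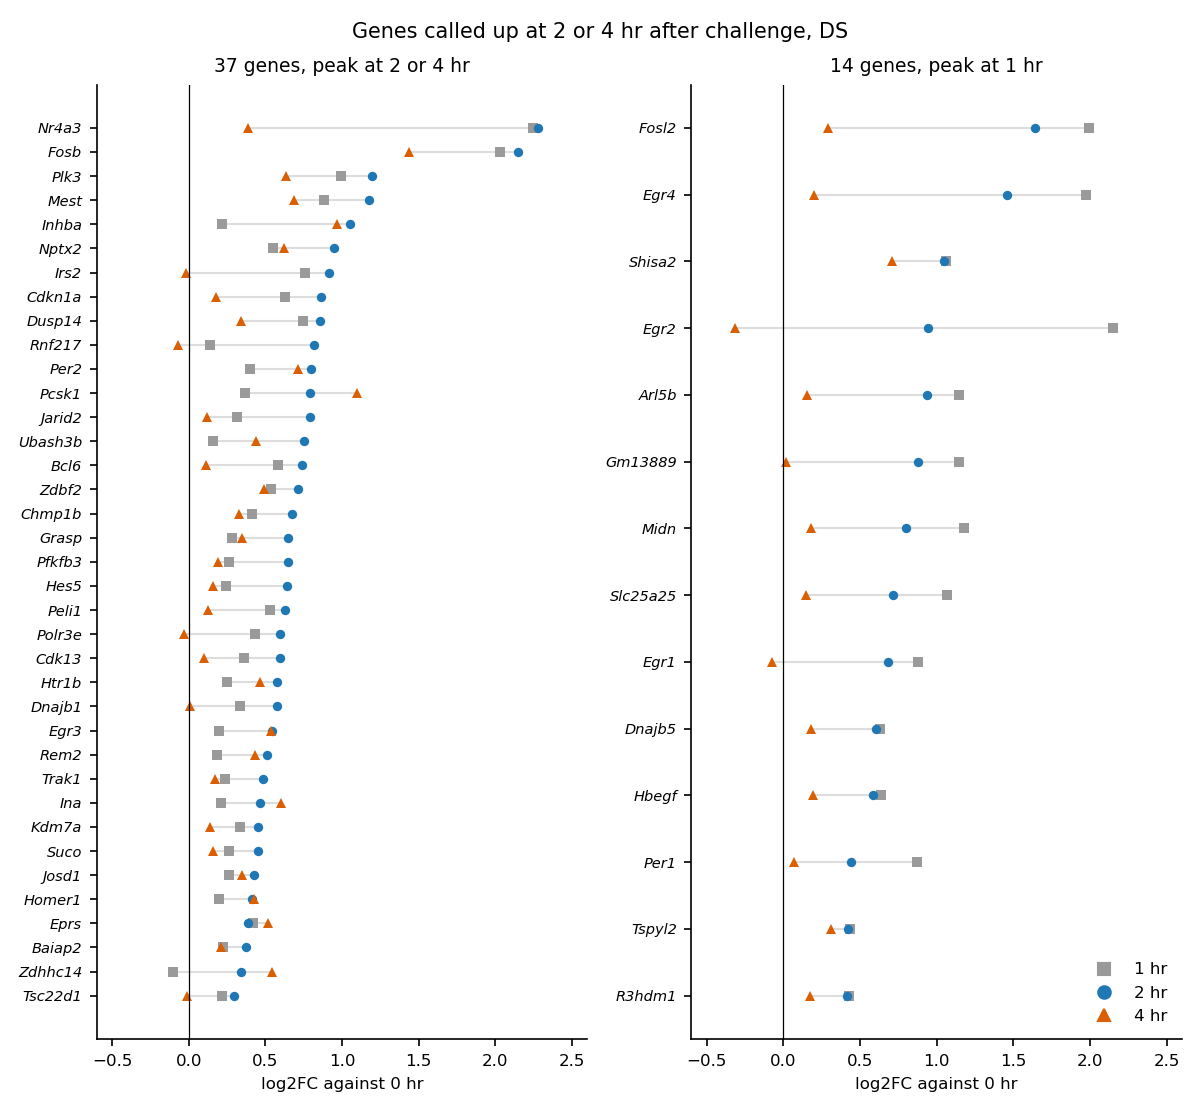
Log2FC against 0 hr at 1, 2 and 4 hr after challenge for each gene called up at 2 or 4 hr, with 37 late-peaking genes on one side and 14 genes that peaked at 1 hr on the other. Marker shape and colour give the time; the late-peaking panel holds the genes whose 2 or 4 hr mark lies beyond the 1 hr mark.

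The sequences upstream of the late genes are shown to set the letters of known activity-dependent elements beside the time courses. RefSeq promoters of GRCm38.p6 were given for 6 of the 9 genes called up at 4 hr, and that of Nr4a3 was added because it had the largest log2FC at 2 hr. Each line begins 250 bases before the first start that RefSeq lists, read in the direction of the gene, and ends at that start or before the first exon of the gene in GENCODE M21, whichever comes first. The annotations differ on the start: the GENCODE exon begins 152 bases before the RefSeq start in Nr4a3, 31 before it in Pcsk1 and 6 before it in Fosb, and the Homer1 window lies in an intron of a GENCODE transcript that starts farther upstream. Capitals mark matches, on either strand, to the CRE (TGACGTCA, the cAMP response element bound by CREB), the CRE core (TGACG, which every CRE contains), the AP-1 element (TGANTCA), the EGR element (GCGNGGGCG) or the CArG box of serum response factor. The E-box CACGTG of the clock factors was searched too.
Nr4a3, chr4:48045055-48045152, plus strand: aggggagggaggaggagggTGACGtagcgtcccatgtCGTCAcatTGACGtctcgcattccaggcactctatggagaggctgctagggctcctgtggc
Fosb, chr7:19310052-19310295, minus strand: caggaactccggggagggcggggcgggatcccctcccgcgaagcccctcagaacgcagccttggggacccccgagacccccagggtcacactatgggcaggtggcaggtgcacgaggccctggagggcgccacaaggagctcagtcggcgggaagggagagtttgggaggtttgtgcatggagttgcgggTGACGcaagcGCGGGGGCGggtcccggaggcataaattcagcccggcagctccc
Homer1, chr13:93303507-93303756, plus strand: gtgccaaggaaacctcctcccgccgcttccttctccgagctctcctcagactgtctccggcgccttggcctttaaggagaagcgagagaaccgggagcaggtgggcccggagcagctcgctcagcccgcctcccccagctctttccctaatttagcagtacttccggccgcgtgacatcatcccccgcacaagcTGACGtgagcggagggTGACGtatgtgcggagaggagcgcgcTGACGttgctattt
Pcsk1, chr13:75089607-75089825, plus strand: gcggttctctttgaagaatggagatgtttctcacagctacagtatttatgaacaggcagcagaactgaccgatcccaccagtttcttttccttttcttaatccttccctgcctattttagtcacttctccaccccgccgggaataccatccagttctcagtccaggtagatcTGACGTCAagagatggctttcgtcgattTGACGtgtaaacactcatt
Eprs, chr1:185362794-185363043, plus strand: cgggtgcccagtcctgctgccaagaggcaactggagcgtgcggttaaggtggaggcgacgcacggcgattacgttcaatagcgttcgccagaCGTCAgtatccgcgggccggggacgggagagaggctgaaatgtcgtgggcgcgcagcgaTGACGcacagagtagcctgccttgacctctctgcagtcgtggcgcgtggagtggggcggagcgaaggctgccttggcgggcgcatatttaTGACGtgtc
Ina, chr19:47014431-47014680, plus strand: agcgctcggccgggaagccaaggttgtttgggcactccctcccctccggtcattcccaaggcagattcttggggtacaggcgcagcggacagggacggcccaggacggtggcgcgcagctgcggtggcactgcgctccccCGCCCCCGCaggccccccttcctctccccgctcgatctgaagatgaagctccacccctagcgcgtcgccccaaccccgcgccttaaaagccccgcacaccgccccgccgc
Inhba, chr13:16011601-16011850, plus strand: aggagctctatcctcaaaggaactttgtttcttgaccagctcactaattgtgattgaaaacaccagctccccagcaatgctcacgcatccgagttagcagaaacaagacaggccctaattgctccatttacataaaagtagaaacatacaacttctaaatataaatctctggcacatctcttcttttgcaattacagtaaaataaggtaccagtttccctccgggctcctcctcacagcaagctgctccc

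The Pcsk1 sequence held a full CRE 78 bases before the start. Nr4a3, Homer1 and Eprs had 3 CRE cores each, of which those of Homer1 lay 56, 40 and 14 bases before the start. Fosb had 1 CRE core, 60 bases before the start, and an EGR match 50 bases before it. Ina had an EGR match only, at 110 bases, and none of the searched letters was in the Inhba window. Per2, Egr3 and Zdhhc14 are named only. Shares were counted over RefSeq windows of 300 bases, from 250 before to 50 after the first listed start of each gene. The CRE core was in 12 of 32 matched late-peaking genes (37.5%), in 7 of 11 genes that peaked at 1 hr (63.6%) and in 31.9% of 10138 promoters of genes tested. The EGR letters were in 7 of the 32 (21.9%), in 18.2% of the genes that peaked at 1 hr and in 11.3% of all. The CRE was in 3.12% of the late-peaking genes, 9.09% of those that peaked at 1 hr and 3.34% of all, the E-box in 9.38%, 27.3% and 10.2%, the CArG box in 3.12%, 0% and 1.24%, and AP-1 in 0%, 0% and 4.61%. Over any listed start, the CRE was in 3 of the 32 late-peaking genes (9.38%), 2 of the 11 that peaked at 1 hr (18.2%) and 3.64% of all. Its share thus rested on which start was taken. A match describes the letters and says nothing about binding.

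Inhba rose at both times and was called at both in every alternative that was run. It encodes the activin βA subunit, a secreted factor of the TGF-β family. The 3 abstinent mice had 42.02, 44.2 and 45.9 CPM of Inhba and the 1 hr mice 50.6, 57.8, 38.8 and 57.9 CPM. At 2 hr Inhba was at 81.2, 109.6, 104 and 70.5 CPM, and at 4 hr at 87.3, 109, 77.6 and 64.8 CPM. Every mouse at 2 and 4 hr lay above every mouse at 0 and 1 hr. The log2FC was 0.22 at 1 hr (adjusted p = 0.982), 1.06 ± 0.15 at 2 hr (2.08-fold, adjusted p = 5.91e-05) and 0.97 ± 0.15 at 4 hr (1.96-fold, adjusted p = 0.00243). The step from 1 to 2 hr was itself called (log2FC 0.84 ± 0.14, adjusted p = 0.000883), as was that from 1 to 4 hr (0.75, adjusted p = 0.00163), whereas 2 and 4 hr differed by less than the SE (-0.09 ± 0.13, adjusted p = 0.951). Inhba was the single gene of the 9 still called at 4 hr without abstinent replicate 3 (log2FC 1.00, adjusted p = 0.0296), and without 4 hr replicate 2 its log2FC was 0.80 (adjusted p = 0.0183).

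**Figure D3:**
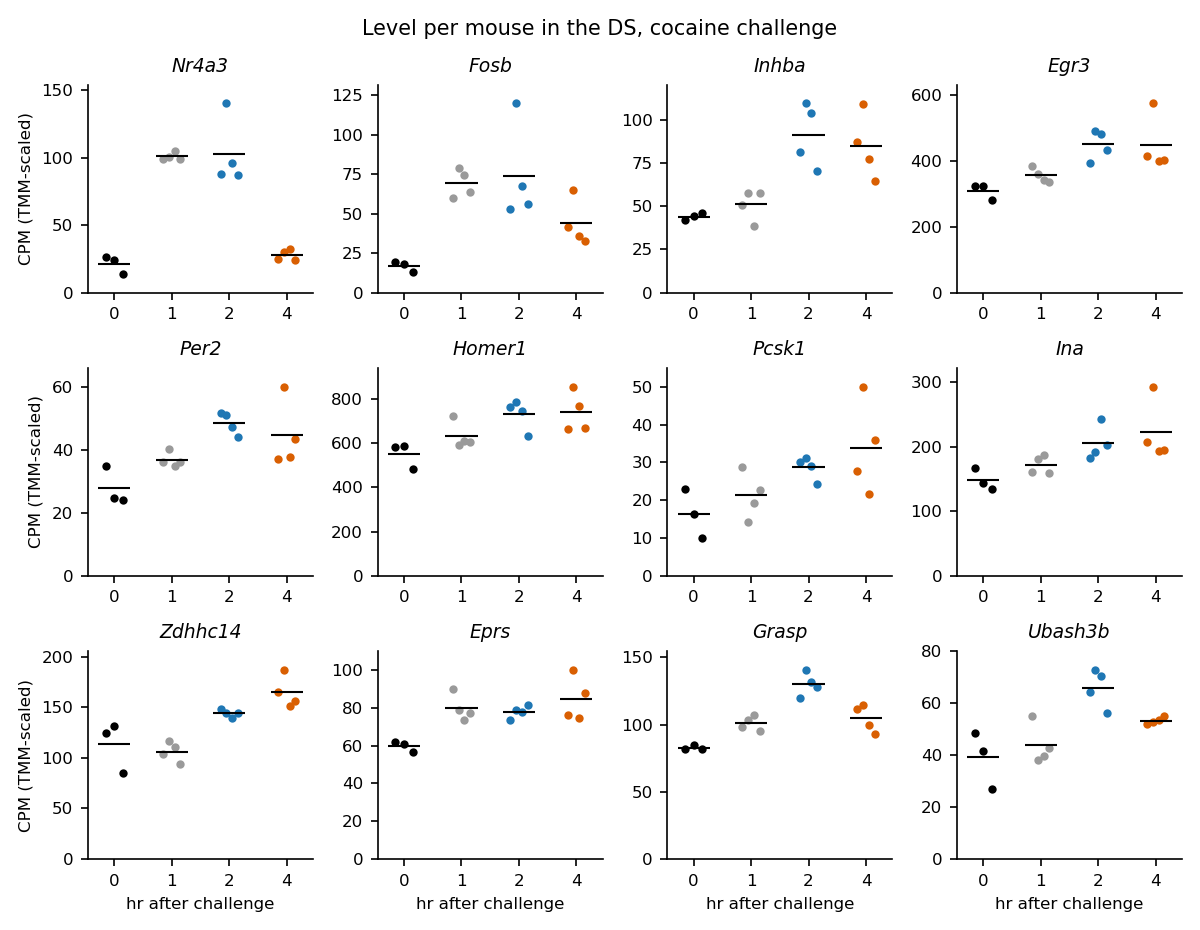
Level of 12 genes in each mouse, in TMM-scaled CPM on axes that start at 0, against hr after challenge (0, 1, 2, 4). Each point is 1 mouse and each bar the mean of a group; Inhba lies between 42.02 and 45.9 CPM at 0 hr and between 64.8 and 109.6 CPM at 2 and 4 hr, while Nr4a3 is back at 24.1 to 32.1 CPM by 4 hr.

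Fosb, Egr3, Homer1 and Per2 were also called at both times. Fosb encodes an AP-1 subunit whose truncated product is long-lived in striatal neurons. It was at 19.6, 18.0 and 13.1 CPM in abstinent mice, at 60.0, 78.7, 74.3 and 63.9 CPM at 1 hr, at 53.2, 120.0, 67.3 and 56.3 CPM at 2 hr and at 41.8, 65.3, 35.8 and 32.8 CPM at 4 hr. No treated mouse overlapped the abstinent ones, and replicate 2 was the highest mouse at 2 and at 4 hr. The log2FC of Fosb was 2.03 at 1 hr, 2.15 ± 0.23 at 2 hr (4.43-fold, adjusted p = 2.56e-07) and 1.44 ± 0.24 at 4 hr (2.71-fold, adjusted p = 0.00373). Its call at 4 hr was lost without abstinent replicate 3 (log2FC 1.28, adjusted p = 0.209). The counts were taken per gene, so Fosb forms were not separated.

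Egr3, a zinc finger transcription factor of the EGR family, had its largest log2FC later than its relatives. It was at 323, 325 and 282 CPM at 0 hr, at 386, 359, 342 and 336 CPM at 1 hr, at 395, 492, 481 and 434 CPM at 2 hr and at 416, 574, 399.8 and 403 CPM at 4 hr. All mice at 2 and 4 hr were above all at 0 and 1 hr. The log2FC of Egr3 was 0.20 at 1 hr (adjusted p = 0.906) and 0.54 ± 0.10 at both later times (1.45-fold, adjusted p = 0.00191 at 2 hr and 0.0115 at 4 hr). By contrast Egr1, Egr2 and Egr4 each had their largest log2FC at 1 hr and fell between 2 and 4 hr, as given below. Without abstinent replicate 3, Egr3 was not called at 2 hr (log2FC 0.48, adjusted p = 0.0755) or 4 hr, and the 4 hr call was also lost without abstinent replicate 2.

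Homer1 encodes a postsynaptic scaffold that binds group I metabotropic glutamate receptors, with a short activity-induced form that these gene counts do not separate. Its levels were 581, 587 and 481 CPM at 0 hr, 765, 788, 747 and 633 CPM at 2 hr and 662, 855, 769 and 668 CPM at 4 hr. All 2 and 4 hr mice lay above all abstinent mice, while the 2 and 4 hr mice overlapped, and the rise was small (log2FC 0.41 ± 0.09 at 2 hr, adjusted p = 0.0146, and 0.43 ± 0.09 at 4 hr, adjusted p = 0.0418). Per2, a repressor of the circadian clock, was at 34.8, 24.7 and 24.1 CPM at 0 hr, at 51.9, 51.3, 47.4 and 44.2 CPM at 2 hr and at 37.3, 60.1, 37.9 and 43.6 CPM at 4 hr. Its lowest 4 hr mouse lay close above the highest abstinent mouse. The log2FC of Per2 was 0.80 ± 0.15 at 2 hr (adjusted p = 0.00333) and 0.72 ± 0.15 at 4 hr (adjusted p = 0.0418). The 4 hr calls of Homer1 and Per2 were each lost in most of the fits that left out 1 mouse, and both calls of each were lost without abstinent replicate 3. The 2 hr call of Homer1 was also lost without 2 hr replicate 1, without 2 hr replicate 2 and in the fit of all DS libraries. That of Per2 was also lost without abstinent replicate 2.

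Another 4 genes were called at 4 hr and not at 2 hr. Zdhhc14 encodes a palmitoyltransferase, an enzyme that adds lipid to proteins. It was at 125, 132 and 85.0 CPM at 0 hr, 104, 116, 110.4 and 93.5 CPM at 1 hr, 148, 144, 139.5 and 144 CPM at 2 hr and 165, 187, 151 and 156 CPM at 4 hr. The order of the groups was 1 hr, 2 hr, 4 hr with no overlap between them. The log2FC of Zdhhc14 was -0.11 at 1 hr, 0.34 at 2 hr (adjusted p = 0.328) and 0.54 ± 0.10 at 4 hr (1.46-fold, adjusted p = 0.0227), and the step from 1 to 4 hr, which uses no abstinent mouse, was 0.65 ± 0.10 (adjusted p = 5.73e-05). Its call against 0 hr was lost without abstinent replicate 3 and without 4 hr replicate 2.

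Pcsk1, Ina and Eprs completed the set. Pcsk1 encodes prohormone convertase 1/3, which cleaves neuropeptide precursors. It was at 23.0, 16.3 and 9.88 CPM at 0 hr, 30.01, 31.2, 29.1 and 24.2 CPM at 2 hr and 27.7, 50.01, 21.7 and 35.9 CPM at 4 hr. This was the 1 gene of the 9 whose groups overlapped, with a log2FC of 1.096 ± 0.23 at 4 hr (2.14-fold, adjusted p = 0.0418) and 0.79 at 2 hr (adjusted p = 0.251). Ina, which encodes the neuronal intermediate filament α-internexin, was at 166, 143 and 134 CPM at 0 hr, 182, 192, 243 and 203 CPM at 2 hr and 206, 293, 193 and 195 CPM at 4 hr. Its log2FC was 0.60 ± 0.11 at 4 hr (adjusted p = 0.0189) and 0.47 at 2 hr (adjusted p = 0.0556), without overlap between abstinent and later mice. Eprs, the glutamyl-prolyl-tRNA synthetase, was at 61.9, 60.8 and 56.5 CPM at 0 hr, 73.7, 78.6, 77.9 and 81.5 CPM at 2 hr and 75.9, 100.0, 74.8 and 87.8 CPM at 4 hr. Its log2FC stayed near one value, 0.42 at 1 hr (adjusted p = 0.0744), 0.39 at 2 hr (adjusted p = 0.153) and 0.52 ± 0.10 at 4 hr (adjusted p = 0.0325). The 4 hr calls of Pcsk1, Ina and Eprs were lost without abstinent replicate 2, without abstinent replicate 3 and without 4 hr replicate 2. In all, Pcsk1 lost its call in 10 of the 15 fits that left out 1 mouse and under DESeq2, Eprs in 6 and Ina in 3. Of the 9 genes called at 4 hr, all but Fosb and Inhba lost that call in the fit of only the groups compared and in the fit of all 48 DS libraries. Of the 9 genes called at 4 hr, 8 had every 4 hr mouse above every abstinent mouse, as had 3.23% of all genes tested.

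Between 2 and 4 hr, tested directly and without the abstinent mice, 25 genes fell (0.198%) and 3 rose (0.0237%). Of the 47 genes called at 2 hr, 18 fell: Arl5b, Cdk13, Cdkn1a, Dnajb1, Egr1, Egr2, Egr4, Fosl2, Gm13889, Irs2, Jarid2, Nr4a3, Peli1, Per1, Polr3e, Rnf217, Slc25a25 and Tsc22d1. Both this contrast and the choice of the 47 use the 2 hr mice. Nr4a3, an orphan nuclear receptor, had the largest log2FC at 2 hr of all genes tested. It was at 26.2, 23.9 and 13.6 CPM at 0 hr, 98.8, 101, 105 and 99.1 CPM at 1 hr, 88.1, 140.2, 95.9 and 86.9 CPM at 2 hr, and 24.8, 30.2, 32.1 and 24.1 CPM at 4 hr. All 1 and 2 hr mice thus lay far above the abstinent mice, replicate 2 was the highest at 2 hr, and the level overlapped that of abstinent mice at 4 hr. The log2FC of Nr4a3 was 2.28 ± 0.16 at 2 hr (4.86-fold, adjusted p = 8.05e-12) and 0.39 at 4 hr (adjusted p = 0.809), with a fall of -1.89 ± 0.14 from 2 to 4 hr (adjusted p = 2.68e-11). It was called at 2 hr in every fit that left out 1 mouse, with a log2FC of 2.04 without abstinent replicate 3.

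Irs2, Cdkn1a and Jarid2 were also called at 2 hr and fell from 2 to 4 hr. Irs2, an adaptor of the insulin and IGF-1 receptors, was at 83.4, 84.9 and 59.3 CPM at 0 hr, 130.2, 169, 142 and 129 CPM at 2 hr and 76.1, 80.7, 71.3 and 69.5 CPM at 4 hr. Its log2FC was 0.91 ± 0.11 at 2 hr (1.88-fold, adjusted p = 5.53e-06), followed by a fall of -0.93 ± 0.10 (adjusted p = 6.01e-07). Cdkn1a, the cyclin-dependent kinase inhibitor p21, was at 29.4, 22.1 and 23.0 CPM at 0 hr, 46.3, 46.1, 45.6 and 43.7 CPM at 2 hr and 27.3, 30.7, 27.6 and 26.2 CPM at 4 hr. The 2 hr mice lay in a narrow band above both other groups (log2FC 0.86 ± 0.13, adjusted p = 6.85e-05, then -0.69 ± 0.11, adjusted p = 0.000828), and the call at 2 hr was lost in the fit of all 48 DS libraries. Jarid2, a partner of Polycomb repressive complex 2 that was singled out after its values were seen, was at 31.6, 31.5 and 33.3 CPM at 0 hr, 59.4, 63.3, 43.9 and 55.6 CPM at 2 hr and 33.9, 33.4, 34.1 and 38.9 CPM at 4 hr. Its log2FC was 0.79 ± 0.13 at 2 hr (adjusted p = 0.000787) and -0.67 ± 0.12 from 2 to 4 hr (adjusted p = 0.00309).

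Nptx2, Grasp and Ubash3b were among the late-peaking genes called at 2 hr that neither fell nor were called at 4 hr. Nptx2, a secreted pentraxin that clusters AMPA receptors, was at 51.8, 45.0 and 27.8 CPM at 0 hr, 82.9, 93.7, 78.5 and 66.0 CPM at 2 hr and 66.4, 68.6, 65.1 and 55.2 CPM at 4 hr. All later mice exceeded all abstinent ones, with a log2FC of 0.95 ± 0.14 at 2 hr (1.93-fold, adjusted p = 7.78e-05) and 0.62 at 4 hr (adjusted p = 0.093). Grasp encodes tamalin, a scaffold of group I metabotropic glutamate receptors. It was at 82.1, 84.7 and 82.0 CPM at 0 hr, 98.0, 103, 107 and 95.4 CPM at 1 hr, 119, 141, 132 and 128 CPM at 2 hr and 112, 115, 99.6 and 92.8 CPM at 4 hr. The abstinent mice were nearly equal and all 2 hr mice lay above all others. The log2FC of Grasp was 0.65 ± 0.09 at 2 hr (1.57-fold, adjusted p = 3.36e-05), and the step from 1 to 2 hr was 0.36 ± 0.08 (adjusted p = 0.0468). Ubash3b, a tyrosine phosphatase, was at 48.6, 41.7 and 27.1 CPM at 0 hr, 55.0, 38.0, 39.8 and 42.9 CPM at 1 hr, 64.3, 72.8, 70.5 and 56.3 CPM at 2 hr and 51.8, 52.9, 53.4 and 55.0 CPM at 4 hr. Its log2FC was 0.75 ± 0.14 at 2 hr (adjusted p = 0.00326) and 0.59 ± 0.13 from 1 to 2 hr (adjusted p = 0.0446). The call at 2 hr was lost without abstinent replicate 3 and in the fit of all DS libraries.

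Mest, an imprinted gene for a hydrolase-like protein, was at 35.8, 25.4 and 20.9 CPM at 0 hr and 56.4, 81.0, 55.1 and 54.6 CPM at 2 hr (log2FC 1.17 ± 0.17, adjusted p = 7.78e-05). Dusp14, a dual-specificity phosphatase, was at 215, 225 and 120.4 CPM at 0 hr and 297, 346, 406 and 305 CPM at 2 hr (log2FC 0.86, adjusted p = 0.000168). Plk3, a stress-responsive polo-like kinase, was low in all mice, at 6.19, 4.32 and 5.97 CPM at 0 hr and 18.9, 13.8, 9.13 and 9.5 CPM at 2 hr (log2FC 1.196 ± 0.27, adjusted p = 0.0275), and its call was lost in 5 of the fits that left out 1 mouse. The remaining late-peaking genes called at 2 hr ran from a log2FC of 0.30 for Tsc22d1, a leucine zipper regulator, to 0.81 for Rnf217, a ubiquitin ligase. The call of Rnf217 was lost in 8 of the 15 fits that left out 1 mouse and with the replicate number as a block, and that of Tsc22d1 in 6 of the 15 and in the fit of all DS libraries. Among them, and singled out after their values were seen, Htr1b, the serotonin 1B receptor, was at 120.1, 85.2 and 96.5 CPM at 0 hr and 157, 153, 156 and 137 CPM at 2 hr (log2FC 0.58 ± 0.11, adjusted p = 0.00262). Its call was lost without abstinent replicate 2 and without abstinent replicate 3. In all 47 genes every 2 hr mouse lay above every abstinent mouse, as did 4.3% of all genes tested. Since the calls and this count come from the same values, it describes the calls and does not add to them.

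The 14 genes that peaked at 1 hr included 4 IEG transcription factors, Egr1, Egr2, Egr4 and Fosl2. Egr4 was at 91.3, 92.0 and 51.9 CPM at 0 hr, 290.1, 340.5, 336 and 268 CPM at 1 hr, 184, 263, 222 and 191 CPM at 2 hr and 78.8, 92.2, 103 and 87.8 CPM at 4 hr. All 2 hr mice were below all 1 hr mice (log2FC from 1 to 2 hr -0.52, adjusted p = 0.0415), and the 4 hr mice overlapped the abstinent ones (log2FC 1.46 ± 0.13 at 2 hr, adjusted p = 4.89e-09, then -1.26 ± 0.12, adjusted p = 1.38e-08). Egr2 was at 33.7, 37.4 and 14.7 CPM at 0 hr, 137, 146, 119 and 104 CPM at 1 hr, 40.4, 65.9, 60.8 and 51.1 CPM at 2 hr and 25.2, 17.2, 29.99 and 23.3 CPM at 4 hr. Its log2FC was 2.15 at 1 hr, 0.95 ± 0.19 at 2 hr (adjusted p = 0.00872) and -0.32 at 4 hr (adjusted p = 0.892), and the call at 2 hr was lost without abstinent replicate 3, without 2 hr replicate 2, under DESeq2 and in the fit of all DS libraries. Egr1 was at 521, 484 and 265 CPM at 0 hr, 627, 689, 781 and 625 CPM at 2 hr and 422, 358, 471 and 366 CPM at 4 hr, where abstinent replicate 3 was far below the other abstinent mice (log2FC 0.68 ± 0.13 at 2 hr, adjusted p = 0.00251, not called without that mouse). Fosl2, an AP-1 subunit, was at 36.9, 26.2 and 10.3 CPM at 0 hr, 62.3, 94.8, 81.9 and 67.5 CPM at 2 hr and 34.8, 22.7, 40.7 and 27.2 CPM at 4 hr (log2FC 1.64 ± 0.21 at 2 hr, adjusted p = 5.53e-06). Shisa2, Arl5b and Per1 were also called at 2 hr, with log2FC of 1.05, 0.94 and 0.44 (adjusted p = 0.00237, 0.00333 and 0.00333). All 3 calls were lost without abstinent replicate 3, and that of Arl5b also without 2 hr replicate 2. The 2 hr calls of Shisa2, Per1 and Egr1 were also lost in the fit of all DS libraries.

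The 3 genes that were higher at 4 hr than at 2 hr were not called against 0 hr at either time. Gemin6, a subunit of the SMN complex that assembles splicing particles, was at 9.81, 10.2 and 12.9 CPM at 0 hr, 7.18, 6.89, 4.85 and 6.65 CPM at 2 hr and 14.8, 13.7, 14.1 and 13.5 CPM at 4 hr (4 against 2 hr, log2FC 1.12 ± 0.20, adjusted p = 0.00326). Its 3 groups did not overlap in these libraries, with the 2 hr mice lowest, whereas in the second libraries described below they overlapped. The share of all genes with such groups was not counted. Hs3st5, a heparan sulfate sulfotransferase, was at 21.8, 18.8 and 15.2 CPM at 0 hr, 15.01, 16.4, 18.8 and 16.9 CPM at 2 hr and 27.5, 40.7, 28.3 and 21.9 CPM at 4 hr (0.86 ± 0.17, adjusted p = 0.00989, or 0.62 and 0.175 without 4 hr replicate 2), and this call was also lost without 2 hr replicate 2. Cldn5, a tight junction protein of endothelial cells, was at 20.5, 21.4 and 22.5 CPM at 0 hr, 19.6, 15.9, 15.7 and 14.01 CPM at 2 hr and 30.9, 23.9, 28.6 and 22.5 CPM at 4 hr (0.70 ± 0.16, adjusted p = 0.0374). This call was lost in 5 of the fits that left out 1 mouse (2 hr replicates 2, 3 and 4, and 4 hr replicates 1 and 3), with both runs summed and in the fit of only the groups compared. The other 11 of the 12 endothelial and mural markers were not called between 2 and 4 hr, and the median log2FC of the 12 was 0.05.

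The lists of genes by function showed where the late calls fell. Of 22 IEG transcription factors tested, 12 rose at 1 hr (median log2FC of the list 0.98), 7 at 2 hr (Fosb, Fosl2, Egr1, Egr2, Egr3, Egr4 and Nr4a3; 0.40) and 2 at 4 hr (Fosb and Egr3; 0.18). Fos itself had a log2FC of 2.25 at 1 hr, -0.01 at 2 hr and -0.61 at 4 hr, the last 2 not called. Of 28 delayed effectors (secreted factors, synaptic proteins, kinases and others reported to follow neuronal activity), 8 rose at 1 hr (Rgs2, Sik1, Gadd45b, Arc, Plk2, Cdkn1a, Sertad1 and Tiparp; median log2FC 0.32), 5 at 2 hr (Nptx2, Homer1, Inhba, Plk3 and Cdkn1a; median 0.33) and 3 at 4 hr (Homer1, Pcsk1 and Inhba; 0.18). Arc, which encodes a synaptic protein, had a log2FC of 1.68 at 1 hr, 0.19 at 2 hr and -0.22 at 4 hr. More members of the delayed effector list rose at 1 hr than at 2 or 4 hr. Its name is therefore no description of the time courses here. Together the IEG and delayed effector lists held 12 of the 47 genes called at 2 hr and 5 of the 9 called at 4 hr, and their medians stood above the 0.00 of all genes tested. Of all genes tested, 0.443% were called up at 1 hr, 0.372% at 2 hr and 0.0712% at 4 hr. The lists were chosen with earlier results of these data known, so part of this may come from that choice.

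Members of the other lists stand beside 0.372% of all genes called up at 2 hr and 0.0712% at 4 hr. Of 15 MAP kinase phosphatases and Ras inhibitors, Dusp14 rose at 2 hr and none at 4 hr (median 0.12 and 0.07). Of 19 glucocorticoid-responsive genes, Per1 and Cdkn1a rose at 2 hr and none at 4 hr (0.22 and -0.04), and of 19 clock genes Per1 and Per2 rose at 2 hr and Per2 at 4 hr (0.07 and 0.07). Of 15 heat shock proteins, the co-chaperone Dnajb1 rose at 2 hr, from 91.1, 71.7 and 69.4 CPM to 123, 113, 132 and 95.5 CPM (log2FC 0.57, adjusted p = 0.00872; list median -0.11). This call was lost without abstinent replicate 2 or 3 and without 2 hr replicate 3. Of 25 postsynaptic scaffold and plasticity genes, Homer1 and Nptx2 rose at 2 hr and Homer1 at 4 hr (0.05 and 0.08). No member was called at either time among 20 endoplasmic reticulum chaperones (-0.11 and 0.02), 19 cholesterol genes (-0.01 and 0.02), 11 striatal neuropeptides and opioid receptors (0.04 and -0.02), 31 potassium channels (0.02 and 0.01) and 24 genes of dopamine, adenosine and cAMP signalling (0.04 and 0.03). Among members that were not called, and singled out after their values were seen, Pdyn, the dynorphin precursor, had a log2FC of 0.10 at 2 hr and 0.33 at 4 hr, and Crem, a cAMP-responsive transcription factor, 0.40 and 0.58. Other members went the other way. At 4 hr the neuropeptide list ran from -0.58 (Oprm1) to 0.84 (Cartpt) and the dopamine, adenosine and cAMP list from -0.40 (Pde4d) to 0.58 (Crem). Between 2 and 4 hr the kinase gene Sik1, a member of the delayed effector list that was called up at 1 hr, also fell.

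**Figure D4:**
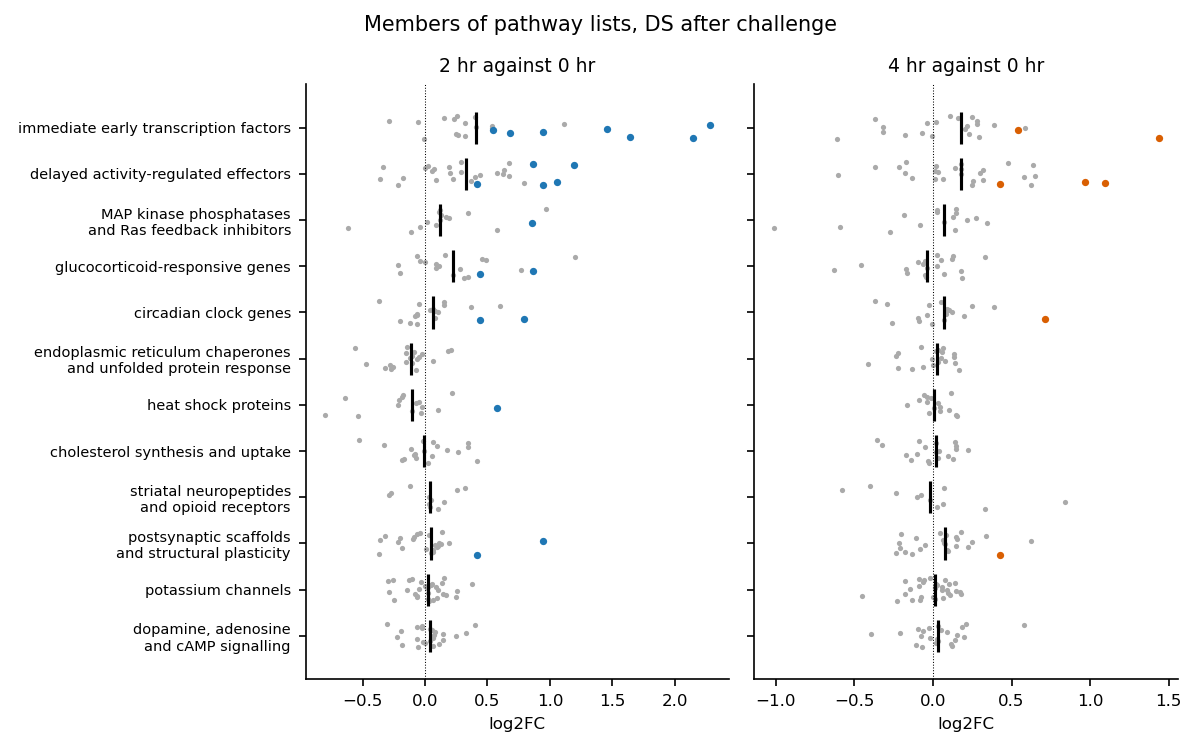
Log2FC at 2 hr (left) and 4 hr (right) against 0 hr for each tested member of the 12 pathway lists. Coloured points passed the test, grey points did not, and the black bar is the list median; the IEG and delayed effector lists hold 12 of the genes called at 2 hr and 5 of those called at 4 hr.

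The same late genes were then looked up after acute and repeated cocaine, in other mice of the DS with 0 hr mice of their own. One fit of 48 DS libraries was used (12918 genes). After acute cocaine, 90 genes rose (0.697%) and 45 fell (0.348%) at 1 hr, 80 rose (0.619%) and 58 fell (0.449%) at 2 hr, and 59 rose (0.457%) and 60 fell (0.464%) at 4 hr. After repeated cocaine, 31 rose (0.24%) and 3 fell (0.0232%) at 1 hr, 10 rose (0.0774%) and 1 fell (0.00774%) at 2 hr, and none rose or fell at 4 hr (0% and 0%; 600 genes by edgeR at an unadjusted p under 0.05 and 0 by DESeq2). Of the 37 late-peaking genes, 16 rose at 1 hr after acute cocaine (median log2FC 0.39, 33 above 0), 18 at 2 hr (0.49, 35 above 0) and 6 at 4 hr (Egr3, Homer1, Ina, Inhba, Ubash3b and Zdhhc14; median 0.19, 25 above 0). After repeated cocaine 4 rose at 1 hr (0.27, 35 above 0), 5 at 2 hr (Dusp14, Fosb, Jarid2, Nr4a3 and Peli1; median 0.37, 36 above 0) and 0 at 4 hr (0.13, 29 above 0). All genes tested had medians between -0.01 and 0.00. In the same fit challenge itself, which chose the genes, gave 6 calls at 1 hr, 21 at 2 hr and 2 at 4 hr among the 37. The shares called among the late-peaking genes thus exceeded those of all genes at 1 and 2 hr in both experiences and at 4 hr in acute cocaine. The 14 genes that peaked at 1 hr had 11 calls at 1 hr after acute and 8 after repeated cocaine, 7 and 4 at 2 hr, and 0 at 4 hr in both.

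A pair of those mice went against their group. Acute 2 hr replicate 1 sat near 0 hr levels (Inhba 28.9 CPM, Egr3 245 CPM, Nr4a3 38.2 CPM), and repeated 2 hr replicate 5 was low as well (Inhba 36.0 CPM, Egr3 199 CPM, Nr4a3 32.1 CPM). Without the first, a choice made after seeing the data, 24 of the 37 genes rose after acute cocaine at 2 hr (median 0.62), while the genes up over all tested went from 80 to 197 and those down from 58 to 155. Without the second, 10 rose after repeated cocaine at 2 hr (median 0.42), while the genes up over all tested went from 10 to 25.

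Inhba and Zdhhc14 are given mouse by mouse for acute cocaine, since both had a tested rise over 1 hr after challenge. Inhba was at 24.7, 22.2, 27.8 and 23.1 CPM at 0 hr, 28.0, 31.5, 25.4 and 29.0 CPM at 1 hr, 28.9, 63.7, 58.8 and 49.1 CPM at 2 hr and 38.3, 44.0, 53.4 and 52.3 CPM at 4 hr (log2FC 1.04, adjusted p = 0.000548 at 2 hr, and 0.93, adjusted p = 0.0041 at 4 hr). Every 4 hr mouse and every 2 hr mouse but replicate 1 lay above the 0 and 1 hr mice. After repeated cocaine Inhba was at 47.8, 39.4, 31.2 and 36.2 CPM at 0 hr and 49.5, 56.0, 58.5, 47.0 and 36.0 CPM at 2 hr, with overlap (log2FC 0.35, adjusted p = 0.992). Zdhhc14 in acute mice was at 118, 115, 124 and 123 CPM at 0 hr, 105, 90.3, 95.2 and 98.0 CPM at 1 hr, 128, 186, 175 and 173 CPM at 2 hr and 170.1, 155, 189 and 196 CPM at 4 hr (log2FC 0.46, adjusted p = 0.0295 at 2 hr, and 0.56, adjusted p = 0.00518 at 4 hr). As after challenge, its mean was lowest at 1 hr and its 4 hr mice all lay above the 0 hr mice.

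The differences between responses were tested as interactions, and none of the 12918 genes passed in either direction at 2 or 4 hr, for challenge minus acute or challenge minus repeated (0% in each of the 8 cases). By edgeR 945, 897, 426 and 454 genes had an unadjusted p under 0.05 in these 4 tests (acute at 2 and 4 hr, repeated at 2 and 4 hr). DESeq2 called 2 genes at 2 hr against acute (Acvr1 and Adgrf5, both lower after challenge) and 0 in the others. With no filter on low counts, 26 and 23 genes were called against acute at 2 and 4 hr, and thinning and the replicate block called 1 each at 2 hr. Acvr1, an activin and BMP receptor, was the 1 gene called by edgeR without acute 2 hr replicate 1 (difference -1.04, adjusted p = 0.0181). For Inhba, challenge minus acute at 2 hr was 0.02 ± 0.25 (adjusted p = 0.994) and challenge minus repeated 0.70 ± 0.23 (adjusted p = 1.0). For Cdkn1a, challenge minus acute at 2 hr was 1.28 ± 0.33 (adjusted p = 0.298), with 1 acute 0 hr mouse at 121 CPM. Since the genes were picked for a rise after challenge, differences from the other experiences lean upward for them by that choice. Acute libraries came from another run than challenge and repeated libraries, so run and experience cannot be told apart there.

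**Figure D5:**
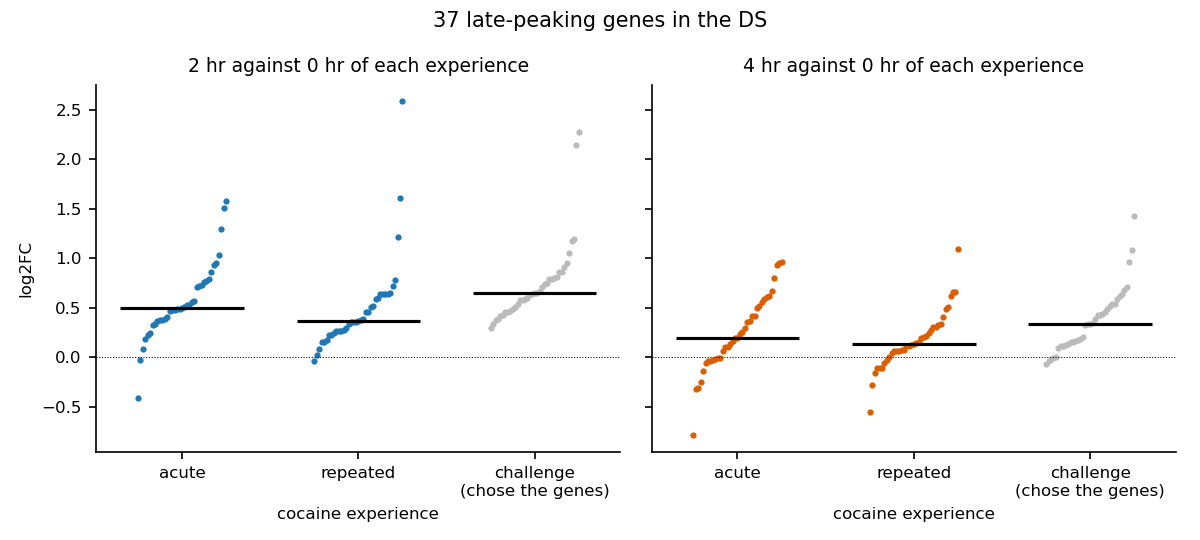
Log2FC at 2 hr (left) and 4 hr (right) of the 37 late-peaking genes after acute, repeated and challenge cocaine, each against its own 0 hr mice. Each point is 1 gene and the bar the median; challenge, in grey, chose the genes and is shown for reference, and the acute medians are 0.49 and 0.19 and the repeated medians 0.37 and 0.13.

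Second libraries had been made from 2 of the mice at each DS time point and sequenced in another run, with 1269391 to 1805910 counts each. They are technical repeats of mice already counted, and the genes were called on those same mice. Abstinent replicate 3 is not among them, whereas 4 hr replicate 2 is. How many of all genes tested lay above 0 hr in these libraries was not counted. In them 45 of the 47 genes called at 2 hr were above 0 hr (median log2FC 0.53 against 0.68), the exceptions being Chmp1b (-0.04) and Midn (-0.03), and all 9 called at 4 hr were above 0 hr (0.73 against 0.60). Inhba, for example, was at 83.6 and 69.7 CPM at 0 hr, 130.4 and 145 CPM at 2 hr and 158 and 163 CPM at 4 hr in these libraries, so its groups were again apart.

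In GENCODE M21 coordinates of GRCm38, Inhba spans chr13:16011851-16031621 on the plus strand, Nr4a3 chr4:48045153-48086447 on the plus strand, Fosb chr7:19302696-19310051 on the minus strand, Egr3 chr14:70077203-70082614 on the plus strand and Zdhhc14 chr17:5492557-5753811 on the plus strand. Of the 54 genes whose values were examined, 14 have exons that overlap another gene, among them Ina with Nt5c2 and Mest with Copg2 on the opposite strand and Gm13889 with Gm27027 on the same strand. The strand setting of the counting is not given in the sources used here, so the values of such genes may include reads of their partners.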

How the data were processed

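Gene expression was measured by 3′-RNA-seq with unique molecular identifiers (UMIs), random tags by which PCR copies are recognised, in 1 library per mouse and run. The authors dropped PCR copies by UMI and trimmed polyA ends. They mapped the reads with STAR to GRCm38 and used HTSeq for counts per gene, and the deposited values are these counts, whole numbers that are not normalized. The table holds 19363 genes and 194 libraries. The 11 libraries of DS at 0, 2 and 4 hr held 2930082 to 10367769 counts, and those at 1 hr 3401994 to 4108810. Groups and replicate numbers came from the sample labels.

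The 15 challenge DS libraries of 1 run (0, 1, 2 and 4 hr) were fitted with edgeR 4.0.16 in R 4.3.3 (filterByExpr by group, TMM scaling, quasi-likelihood F tests, Benjamini-Hochberg adjusted p-values over 12641 genes), where limma 3.58.1 was loaded with it. CPM are TMM-scaled. A gene was called at an adjusted p under 0.05 and a fold change over 1.2. Interactions with acute and repeated cocaine were contrasts in 1 fit of 48 DS libraries and were called at an adjusted p under 0.05. Libraries from the second run of the same mice were left out of the tests. No pair of replicates had counts that agreed within sampling noise (chi-square per degree of freedom 2.28 to 7.89 in 21 pairs), so none was treated as a repeat deposit of 1 library. The tests were tried on simulated counts beforehand.

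The genes named are the 12 with the largest log2FC among those called at 2 hr and at 4 hr with a mean of at least 20 counts, called members of the pathway lists, late-peaking genes with a tested rise over 1 hr, and the 3 in each direction with the smallest p between 2 and 4 hr. Some results are not reported here. Genes named beyond this rule were singled out after their values were seen. The samples, the late genes and the lists were chosen with earlier results of these data known. Alternatives were RLE scaling, DESeq2 1.42.0, no filter, the replicate number as a block, thinning, both runs summed, a fold over 1.5, fits of only the groups compared or of all DS libraries, an F test over the times, and leaving out each mouse. Promoters are RefSeq sequences of GRCm38.p6 and gene coordinates those of GENCODE M21. Plots were drawn in Python 3.11.15 with matplotlib 3.10.9, numpy 2.4.6 and pandas 2.3.3.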

Additional observations from a re-analysis of the deposited data

Results flagged for a closer look

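In 10 of 126 groups of 4 mice checked, the highest or lowest mouse stood far from the others. The cutoff gives about 1 in 20 by chance in independent groups of normally distributed values. These groups share mice and mostly hold genes chosen for their rise, so that rate need not apply. In 5 of the 10 it was 4 hr replicate 2, the deepest library: Egr3 was at 574.4 CPM in it against 399.8 to 416 in the other 4 hr mice, Ina at 292.6 against 193 to 206, Mest at 59.5 against 35.4 to 38.9 and Zdbf2 at 91.4 against 72.0 to 74.3, and the striatal interneuron markers summed to 707.9 CPM against 865 to 893. Replicate 2 at 2 hr, another mouse, was highest for Nr4a3 (140.2 CPM against 86.9 to 95.9) and Mest (81.0 against 54.6 to 56.4). At 2 hr, Polr3e was lowest in replicate 3 (42.2 CPM against 47.3 to 48.3) and Tsc22d1 highest in replicate 4 (761.8 against 723 to 726). Jarid2 at 4 hr was highest in replicate 4 (38.9 CPM against 33.4 to 34.1).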

How the results depend on the processing

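With 1 mouse left out in turn, the genes up ranged from 18 to 54 at 2 hr and from 1 to 12 at 4 hr, and the genes down from 0 to 2 and from 0 to 3. Genes called between 2 and 4 hr ranged from 18 to 36, late-peaking genes from 13 to 45, those with a tested rise over 1 hr from 1 to 8, and genes called for challenge against acute cocaine from 0 to 1 at 2 hr and from 0 to 1 at 4 hr, with 0 throughout against repeated cocaine. The lowest counts of up and late genes came without 0 hr replicate 3. Without 0 hr replicate 2, 3 genes were up at 4 hr and 24 were late-peaking, without 1 hr replicate 4, 5 were up at 4 hr, without 2 hr replicate 2, 32 were up at 2 hr, 18 were called between 2 and 4 hr and 2 had a tested rise, and without 4 hr replicate 3, 3 were down at 4 hr and 8 had a tested rise. DESeq2 called 1 gene down at 2 hr, 2 down at 4 hr and 2 for challenge against acute at 2 hr. With no filter on low counts, 69 genes were up and 6 down at 2 hr, 29 up and 2 down at 4 hr, 75 called between 2 and 4 hr, 65 late-peaking, 17 with a tested rise, and 26 and 23 called against acute cocaine at 2 and 4 hr. Thinning gave 2 genes with a tested rise and 1 called against acute at 2 hr. Summing both runs gave 1 gene down at 2 hr and 2 with a tested rise. A fold over 1.5 left 5 genes up at 4 hr, 17 between 2 and 4 hr and 24 late-peaking. Fits of only the groups compared gave 6 genes down at 2 hr and 2 up at 4 hr, the F test over the times 72 up and 6 down at 2 hr and 35 up and 15 down at 4 hr, and the fit of all 48 DS libraries 29 up at 2 hr and 2 at 4 hr. Replicate numbers did not pair the mice (r of deviations between -0.084 and 0.096 in 21 pairs), and with the replicate number as a block 1 gene was called against acute at 2 hr, while 49 were up at 2 hr and 12 at 4 hr. Without repeated 2 hr replicate 5, 10 late-peaking genes rose after repeated cocaine at 2 hr rather than 5, and without acute 2 hr replicate 1, 1 gene was called against acute at 2 hr; both were chosen after seeing the data. No named gene reversed under any alternative, and of 930 gene values with 1 mouse left out, 768 kept their call and 162 lost it. The causes were not tested. Genes of low level, such as Plk3 and Gemin6, rest on few counts per library, and each contrast with 0 hr on 3 abstinent mice.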
